A study of Mus musculus with 4 samples.

Results

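Probe sets for proteins of the cytosolic ribosome were read in skeletal muscle of the mouse, from total RNA hybridised to 4 arrays. The members are the probe sets whose 1 gene symbol in the platform's gene table begins with Rpl or Rps and a digit, or is Rplp0 or Rpsa, without the Rps6k kinases and pseudogenes. There were 49 such probe sets among 12488 in the table, 22 for the large and 27 for the small subunit, and they named 35 genes (17 large, 18 small) of the 8251 that probe sets with 1 symbol name. Another 39 probe sets carried a ribosomal protein symbol beside other symbols, mostly pseudogenes, and were left out. They are the sole probe sets of 33 further ribosomal protein genes, Rplp1, Rpl3, Rpl5, Rps2 and Rps6 among them, so the members cover only part of the ribosome. The study's title names the neuromuscular junction. Array titles give the code J on 2 arrays (1a and 1c) and NJ on 2 (1a and 1d), all at 0 h and all with the code Ctr. The labels do not spell these codes out, and give no strain, age or treatment and nothing on whether the arrays came from separate animals, so p-values measure only the spread between these samples, which may be technical.

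The cytosolic ribosome translates nuclear-encoded messages. Its small subunit binds the mRNA and decodes it, and its large subunit joins the amino acids and holds the tunnel through which the new chain leaves. Most of its proteins are needed in equal number. The mRNAs of its proteins are among the most abundant of most cells, and many begin with a pyrimidine tract through which growth signals control their translation. In skeletal muscle the number of ribosomes is known to follow fibre growth and wasting.

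Start-site regions of the members were read as well, since the rule did not use them. RefSeq's promoter table for GRCm38.p6 held 37 windows for 28 of the 35 genes, each from 250 bases before to 50 after an annotated start. The letters CCGGAAG, a core that factors of the ETS family bind, were present on either strand in 12 of the 37 windows (32.4%), against 8.86% of all 32851 windows. By subunit they were in 6 of 19 large and 6 of 18 small subunit windows. GGGCGG, a core bound by Sp1, was present on either strand in 56.8%, against 35.7% of all windows, and TATAAA in the 50 bases before the start in 0 of 37, against 2.63%. A run of at least 8 bases that were all C or T and began with C lay within 30 bases of the start, on the coding strand, in 40.5%, against 18.2%. GC content, which all of these matches depend on, had a median of 57.7% in the members' windows and 52.7% in all. The stretches of 6 members run from 50 bases before to 20 after the start and are written 5′ to 3′. Rpl6 (chr5:121204451-121204520, plus strand), Rps7 (chr12:28635934-28636003, minus strand) and Rps3a1 (chr3:86142649-86142718, minus strand) hold the ETS core near the start, and Rpl41 (chr10:128549149-128549218, minus strand), Rplp0 (chr5:115559417-115559486, plus strand) and Rps28 (chr17:33824543-33824612, minus strand) are among the brightest members on the arrays and do not hold it in this stretch, though Rpl41 holds it elsewhere in its window. Capitals mark CCGGAAG or its reverse complement.
Rpl6: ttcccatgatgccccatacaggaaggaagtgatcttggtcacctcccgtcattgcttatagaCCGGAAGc
Rps7: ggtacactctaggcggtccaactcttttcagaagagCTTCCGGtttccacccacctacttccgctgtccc
Rps3a1: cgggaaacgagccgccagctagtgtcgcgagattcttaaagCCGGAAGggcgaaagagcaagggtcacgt
Rpl41: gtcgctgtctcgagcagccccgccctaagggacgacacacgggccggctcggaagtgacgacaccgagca
Rplp0: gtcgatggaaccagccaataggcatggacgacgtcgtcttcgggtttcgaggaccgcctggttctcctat
Rps28: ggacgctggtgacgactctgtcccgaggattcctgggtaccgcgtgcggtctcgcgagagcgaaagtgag

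The deposited signals are linear intensities scaled to a common level on each array. Array J 1c stood apart at the bright end. Its brightest probe set outside the controls read 41086, where the remaining arrays reached 125534 to 231943. For its 9 bacterial and phage hybridisation controls, J 1c minus the mean of the others was −3.17 to −1.80 in log2. The 3′ to 5′ signal ratio of the Gapdh control was 1.43 on J 1c and 7.48 to 8.34 on the others, and that of beta-actin was 4.61 on J 1c and 4.75 to 8.46 on the others. The summed signal of muscle fibre markers was high on every array and lowest on J 1c. All 12 markers had probe sets, and the sum was 1069000 and 191121 on J 1a and J 1c and 881788 and 586684 on NJ 1a and NJ 1d. Signals of 0 cannot tell whether other cell types were absent, since the lowest signal of an array was 0.4 to 7.94. The summed signals of fibroblast markers were 110150 and 43653 on the J arrays against 61117 and 52072 for NJ. The 7 fibroblast markers had a median log2 difference of 0.37 (0.55 with the 1a arrays alone and 0.25 for J 1c minus NJ 1d). J was the higher group for 5 of them and the lower for 2. Both J values exceeded both NJ values in 3 of the 7 (42.9%), against 13.6% of all probe sets tested. Postn, a matrix protein, read 1311 and 700 on the J arrays against 43.3 and 75.2 for NJ (3.43 ± 0.81, standard error, limma adjusted p = 0.9998). Dcn, at 82874 and 25304 against 42425 and 36133, made up most of the sum on each array. The summed signals of myeloid and lymphoid markers were 962 and 2839 on the J arrays against 2619 and 2346 for NJ. Fibroblast markers were not alone in lying higher in J. All 5 smooth muscle and pericyte markers did so, at a median of 0.51 (−0.032 for the 1a arrays, 0.82 for J 1c minus NJ 1d). In 0 of these 5 did both J values exceed both NJ values. The 2 tested red blood cell genes were higher in J, with a median of 0.32. The 2 tested adipocyte genes split, with Adipoq at 1.90 and Fabp4 at −0.42, so their median of 0.74 shows no shared direction. The medians of muscle fibre, myeloid and lymphoid, Schwann cell, neuron and satellite cell markers were negative. In bulk RNA fewer cells of a type and less RNA per cell cannot be told apart, and the part of these values in the results below was not tested. Signals have full digits on both 1a arrays and 1 decimal on the rest, so a J and an NJ array share each number format.

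Ribosomal protein mRNA did not differ detectably between J and NJ in either subunit. Values were compared as log2(signal + 32) after quantile normalisation, a scale that understates changes of dim probe sets, and the brightest probe set stood for a gene. Of the 49 probe sets 43 were bright enough to test, for 16 large and 16 small subunit genes. With limma and Benjamini-Hochberg adjustment, 0 members passed an adjusted p of 0.05 (each at 0.9998), as did 0 of all 9316 probe sets tested (0.0%). At an unadjusted p under 0.05 there were 0 members, against 2.13% of all. With a limma term for the number format 0 members passed again, the lowest adjusted p being 0.8235, where 0.0859% of all probe sets did. The 32 genes had a median difference, J minus NJ, of −0.059, with 13 higher and 19 lower, against a median of −0.010 over all probe sets. The median size of the difference was 0.23 and the median standard error 0.45, so the typical difference lay within the error.

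**Figure D1:**
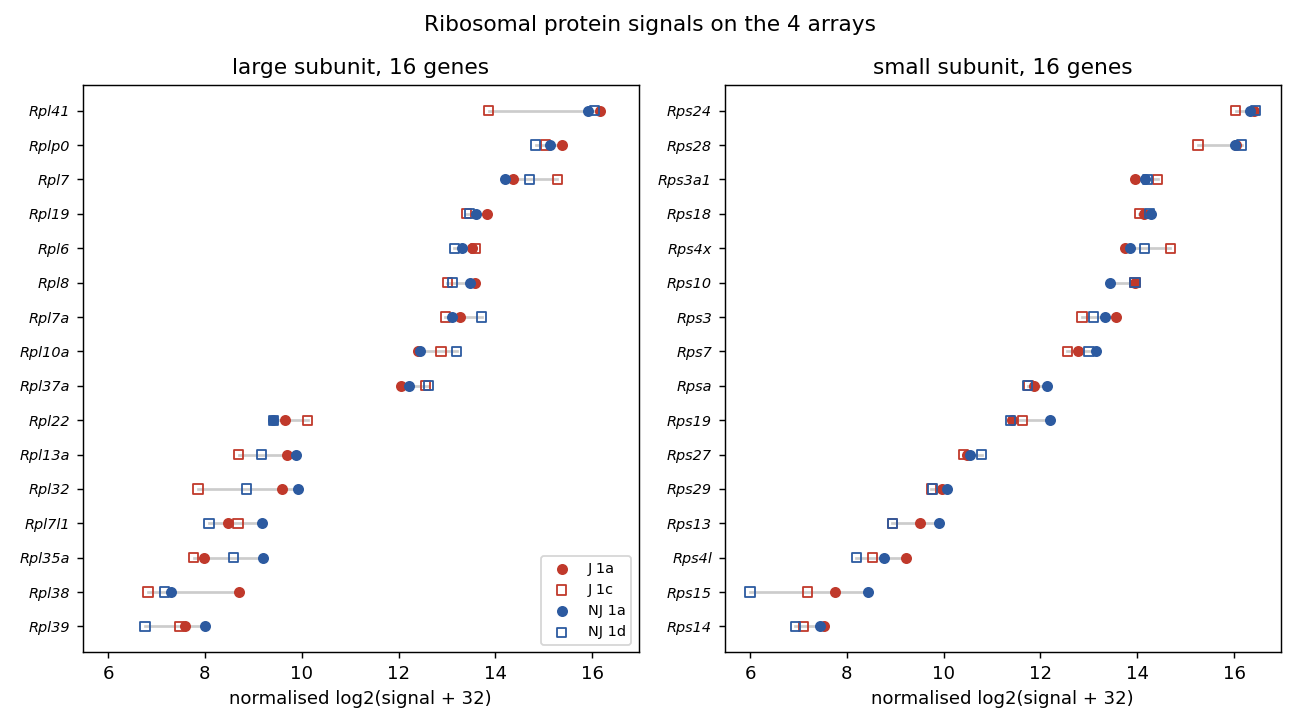
Normalised log2(signal + 32) of the 32 tested genes, 1 row per gene, large subunit left and small right, with J arrays in red, NJ in blue, 1a arrays as filled circles and 1c or 1d as open squares. Red and blue overlap in 26 genes, and Rpl41 lies low on J 1c alone.

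The large subunit had 7 genes higher in J and 9 lower, with a median of −0.028, and the small subunit 6 higher and 10 lower, with a median of −0.099. These medians were 0.13 and −0.11 with the 1a arrays alone, and −0.080 and 0.0031 for J 1c minus NJ 1d, so neither subunit kept one direction in both number formats. Without J 1c the large subunit median was 0.19, and without NJ 1a it was 0.14. The small subunit median was −0.011 without J 1c and 0.070 without NJ 1a. Intervals were wide. All 32 of the 95% intervals held 0, their half-widths running from 0.79 to 2.12, and only 6 lay within a 2-fold change either way, those of Rpl8, Rpl19, Rpl37a, Rps3, Rps3a1 and Rpsa.

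**Figure D2:**
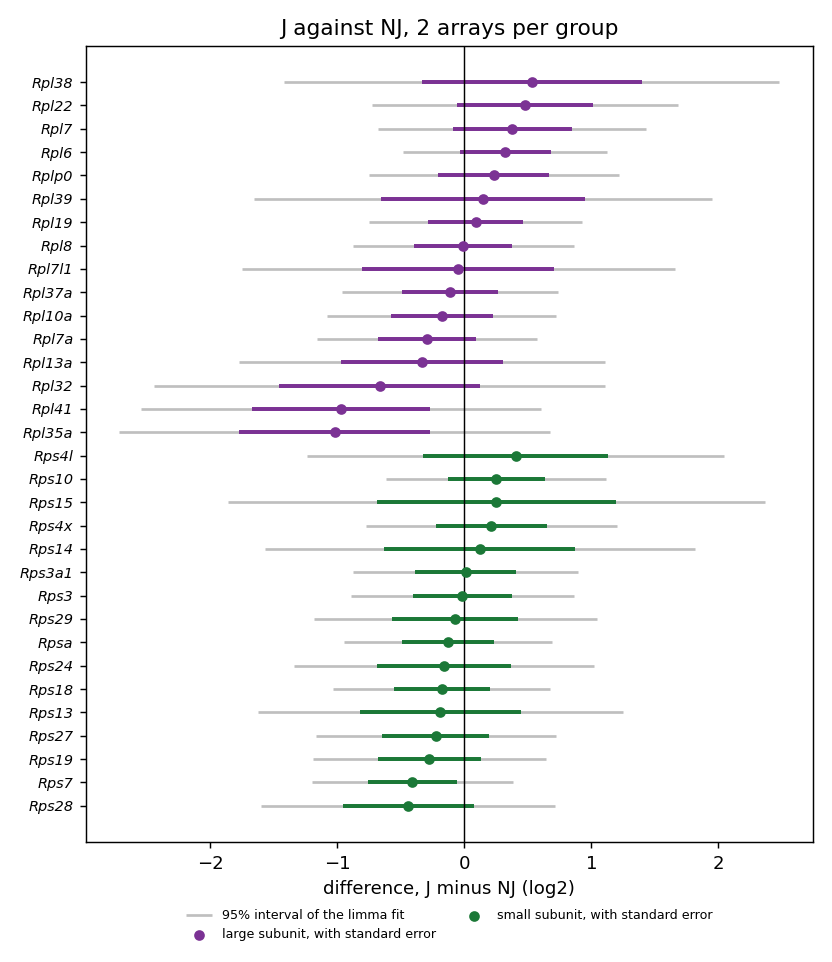
Difference of J minus NJ for each tested gene (log2, horizontal axis), with the standard error as a thick and the 95% interval of the limma fit as a thin line, large subunit in purple and small in green. All 32 intervals cross 0.

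To set the subunits side by side on each array, each gene was taken as its deviation from its own mean over the 4 arrays, since probe sets of different genes do not give comparable levels. Large subunit genes had median deviations of 0.13 on J 1a, −0.11 on J 1c, 0.028 on NJ 1a and −0.19 on NJ 1d. Small subunit genes had 0.091, −0.14, 0.14 and −0.043 on the same arrays. Both subunits were thus above their means on the 1a arrays and below them on the others, but not under the other scalings. On the deposited scale the small subunit was at 0.13 on NJ 1d, and with median centring J 1a was at −0.046 and −0.026 and NJ 1d at 0.17 and 0.34 (large, small). The gap of large minus small was 0.041 and 0.030 in J and −0.11 and −0.14 in NJ. On the deposited scale it was −0.020 and −0.050 in J and −0.13 and −0.17 in NJ. The groups did not overlap, and the gap was 0.16 larger in J (0.035 ± 0.0073 against −0.126 ± 0.022, SD, n = 2 each). An exact two-sided permutation test gave p = 0.333, the smallest that 2 arrays against 2 allow, and the values of the arrays are not independent because each gene's deviations sum to 0. Over 16 alternatives this gap ran from 0.071 with a gene's probe sets averaged to 0.20 with the brightest genes alone. These are not 16 separate checks. Leaving out an array, or reading a single number format, only recombines the gaps of the same 4 arrays, which do not overlap. Such values had to be above 0. Median centring shifts whole arrays and so repeats the gap of the deposited scale. The SD between replicate arrays behind this gap was 0.0165. The subunits' own medians of the difference were 0.071 apart, the large subunit being the higher, but this order was not kept. The large subunit median was the lower on the deposited scale (−0.15 against −0.13) and with median centring (−0.21 against −0.19). It was also the lower with probe sets averaged (−0.12 against −0.047) and without probe sets that carry a suffix letter (−0.028 against −0.016). For J 1c minus NJ 1d it was the lower too, and in the remaining alternatives the higher.

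**Figure D3:**
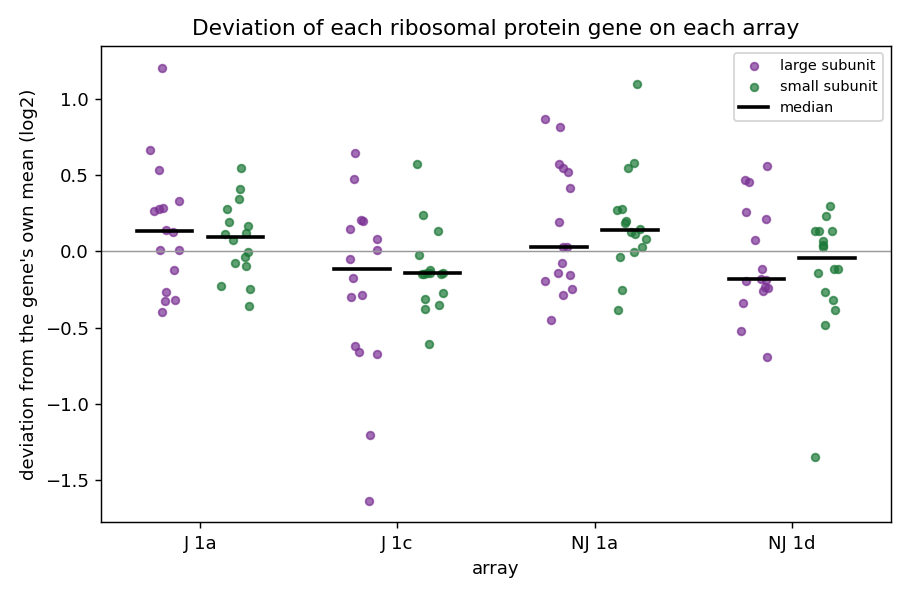
Deviation of each tested gene from its own mean over the 4 arrays (log2, vertical axis) by array, 16 large subunit genes in purple and 16 small in green, with black bars at the medians. The medians run from −0.19 to 0.14.

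Gene values are given as deposited signals, in the order J 1a and J 1c, then NJ 1a and NJ 1d, and as the normalised log2 difference of J minus NJ ± its standard error in the limma fit (n = 2 each). Among large subunit proteins, Rplp0, the base of the stalk that recruits translation factors, had signals of 54312 and 21162 on the J arrays against 40251 and 34500 for NJ. Its J values lay on either side of the NJ values. The difference was 0.23 ± 0.44 after quantile normalisation, and −0.14 on the deposited scale, or −0.20 after median centring. Rpl41, a very short basic protein, had 125112 on J 1a and 12893 on J 1c, against 82001 and 73695 in NJ. Only J 1c was low. The difference of −0.97 ± 0.70 was 0.25 with the 1a arrays alone and −2.19 for J 1c minus NJ 1d, and without J 1c it was 0.18.

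Rpl6 and Rpl22 were the tested genes whose brightest probe set had both J signals above both NJ signals. Rpl6, whose ETS core is shown above, had 11202 and 11135 on the J arrays against 9997 and 10361 for NJ, a difference of 0.32 ± 0.36. Rpl22, a protein known for a role in T cell development, had 803 and 1106 on the J arrays against 671 and 611 for NJ, a difference of 0.48 ± 0.53. Its dimmer probe set went the other way, with 59.2 and 264 on the J arrays against 205 and 475 for NJ (−1.10). Rpl35a, which is mutated in some cases of the anaemia Diamond-Blackfan, was the tested large subunit gene with both J signals below both NJ signals. It read 259 and 165 on the J arrays against 584 and 305 for NJ, a difference of −1.02 ± 0.75, the largest of any tested member gene in size.

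Signals of Rpl7, a large subunit protein, were 20880 and 23249 on the J arrays against 19427 and 31358 for NJ, a difference of 0.38 ± 0.47 that was −0.16 on the deposited scale, or −0.23 after median centring. Rpl7l1, its paralog, read 372 and 353 on the J arrays against 573 and 199 for NJ (−0.048 ± 0.76, and 0.076 on the deposited scale, or 0.014 after median centring). Both overlapped between groups. Rpl38, known for control of selected homeobox mRNAs, read 433 and 72.2 on the J arrays against 145 and 88.7 for NJ. It was high on J 1a alone, and differed by 0.53 ± 0.87. Rpl32 read 769 and 179 on the J arrays against 947 and 380 for NJ, so that both 1a arrays were high, and differed by −0.67 ± 0.79. Rpl7a at −0.30 ± 0.39 and Rpl13a at −0.33 ± 0.64 overlapped between groups. The others, Rpl8 and Rpl19 (the first at the peptidyl transferase centre), Rpl10a of the L1 stalk, Rpl37a, and Rpl39 of the exit tunnel, had differences from −0.18 to 0.15. That of Rpl19, 0.088, was −0.032 on the deposited scale, or −0.094 after median centring. Rpl39l, a paralog of Rpl39 known from testis, was too dim to test, with 30.5 and 77.7 on the J arrays against 90.2 and 132 for NJ, where Rpl39 had 189 and 128 on the J arrays against 258 and 58.4 for NJ.

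Of the small subunit genes, 3 had both J signals below both NJ signals after normalisation. Rps7 read 6395 and 6174 on the J arrays against 8729 and 9241 for NJ, a difference of −0.41 ± 0.35, or −0.37 with the 1a arrays alone and −0.45 for J 1c minus NJ 1d. Rps18, of the subunit's head, read 18667 and 14268 on the J arrays against 21701 and 22052 for NJ (−0.18 ± 0.38). Rps27, a zinc finger protein, read 1406 and 1371 on the J arrays against 1439 and 1733 for NJ (−0.23 ± 0.42). Rps3a1 was below NJ in both J signals too, at 16679 and 17234 against 18741 and 21547, but overlapped after normalisation (0.00914 ± 0.39, and −0.24 on the deposited scale, or −0.31 after median centring). Counted over the 32 genes, 2 (6.25%) had both J values above and 4 (12.5%) below, against 13.6% and 12.9% of all probe sets tested. Those shares do not exceed the background in either direction.

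Rps24 and Rps28 read highest with Rpl41, and like it were low on J 1c. The probe sets that stand for these genes each carry a suffix letter in their names. Rps28, near the exit of the mRNA channel, had 107435 and 22852 on the J arrays against 88551 and 77810 for NJ (−0.44 ± 0.51). Its probe set without a suffix letter read 17243 and 8935 on the J arrays against 11180 and 17157 for NJ (−0.10 ± 0.42). The probe set that stands for Rps24 had 161463 and 28527 on the J arrays against 114516 and 97861 for NJ (−0.16 ± 0.52). It carries the same source accession in the gene table as a probe set named Rpl7, so its gene is uncertain. The other Rps24 probe set had 726 and 338 in J, both above the 278 and 259 in NJ (0.81 ± 0.73).

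Rpsa, first described as a precursor of the laminin receptor, read 3511 and 3545 on the J arrays against 4282 and 3510 for NJ, a difference of −0.13 ± 0.36. Its values on 3 arrays lay close together and NJ 1a was higher. Rps19, often mutated in Diamond-Blackfan anaemia, read 2522 and 3232 on the J arrays against 4449 and 2720 for NJ (−0.27 ± 0.41), NJ 1a again being highest. Rps10, at the mRNA entry, read 16502 and 13566 on the J arrays against 11036 and 17783 for NJ (0.25 ± 0.38), its J values between the NJ values. Rps3, also at the mRNA entry, differed by −0.016 ± 0.39, Rps13 by −0.19 ± 0.64 and Rps29 by −0.071 ± 0.50. Rps15 had 215 and 101 on the J arrays against 352 and 21.4 for NJ (0.25 ± 0.94) and Rps14 read 179 and 93.4 against 165 and 70.6 (0.12 ± 0.75).

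Rps4x, the X-linked form of its protein, had 13827 and 18965 on the J arrays against 14600 and 20388 for NJ at its brightest probe set. The values overlapped, and the difference of 0.21 ± 0.44 was −0.091 on the deposited scale, or −0.15 after median centring. Its paralog Rps4l read 614 and 311 on the J arrays against 436 and 220 for NJ (0.40 ± 0.73), and at another probe set 122 and 511 against 423 and 373 (−0.68). Rps27l, the paralog of Rps27, and Rps20 were too dim to test, with 214 and 55.3 on the J arrays against 129 and 74.5 for NJ for Rps27l and 113 and 64.0 against 205 and 45.2 for Rps20.

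Probe sets of one gene often disagreed. Of 10 member genes with several probe sets, 9 had differences of both signs, Rpl10a being the exception at −0.18 and −0.065. In Rpl7, Rpl38 and Rps4x this was only through a probe set too dim to test. How often the probe sets of other genes disagree was not counted. Rps4x had 5 probe sets. Its 4 tested ones were all higher in J, from 0.15 to 1.61, and the untested one differed by −0.18. The tested one with the largest difference read 246 and 655 on the J arrays against 144 and 64.4 for NJ, so that both J values were above both NJ values. Rps29 had another probe set at 0.89, with 744 and 170 on the J arrays against 107 and 304 for NJ. The dim probe sets of Rpl19 and Rps28 differed by −0.70 and 0.31, and the remaining one of Rps28 by −0.10. An untested probe set each of Rpl7 and Rpl38 differed by −0.35 and −0.78.

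The sign of J minus NJ was also read within each number format. Of the 32 genes, 15 (46.9%) had the same sign of J minus NJ in both formats, against 49.4% of all probe sets tested. Within 1 format Rps15 differed by −0.69 and in the other by 1.19, Rps19 by −0.79 and 0.24, and Rpl38 by 1.40 and −0.33. Rpl35a was the gene lowest in J with the 1a arrays alone (−1.21), and was also negative for J 1c minus NJ 1d (−0.83).

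**Figure D4:**
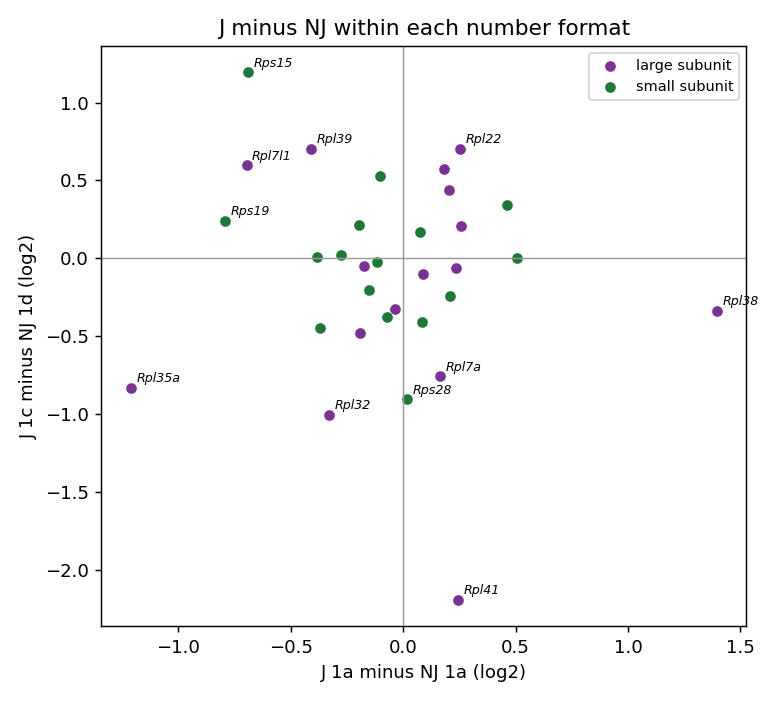
J minus NJ (log2) between the 1a arrays, horizontal, and between J 1c and NJ 1d, vertical, for the 32 tested genes, large subunit in purple and small in green, with genes past 0.6 on either axis named. The points fill all 4 quadrants, 15 of 32 lying where both signs agree.

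Both 1a arrays lay above the other arrays in 14 of 32 genes (43.8%), against 23.2% of all probe sets, and below them in 6 (18.8%), against 22.6%. On the deposited scale the counts were 16 (50%) and 4 (12.5%), against 28.1% and 18.8% of all probe sets. With median centring they were 8 (25%) and 10 (31.25%), against 16.9% and 31.8%. Counts of members and of all probe sets both moved with the scaling. The members' share above exceeded that of all probe sets on each scale. Of genes at or below the 90th percentile of brightness, 9 of 13 were higher on both 1a arrays and 0 lower, with a median of 0.63 for 1a minus the others, where 23.0% and 22.1% of all such probe sets were. The counts were 10 and 0 on the deposited scale, and 8 and 2 with median centring. Shares over all probe sets, bright ones included, are those given above for these scales. Rps15 (1.50), Rpl32 (1.40), Rpl38 (1.01) and Rpl13a (0.85) were the furthest of these. Of the 19 genes above that percentile 5 were higher and 6 lower on the 1a arrays, where 25.5% and 27.4% of all such probe sets were. The counts for these 19 were 6 and 4 on the deposited scale, and 0 and 8 with median centring, beside the same shares over all probe sets. Rpl7 had −0.72 for 1a minus the others, Rps4x −0.62 and Rpl10a −0.61. No member passed limma for this split (lowest adjusted p = 0.262), where 1.47% of all probe sets did. Label 1a and number format coincide and cannot be told apart.

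The 4 brightest member genes were low on array J 1c in deposited signal. On the deposited log2 scale J 1c minus the mean of the others was −2.82 for Rpl41, −2.09 for Rps24, −1.98 for Rps28 and −0.996 for Rplp0, and each was lowest on J 1c. The next lowest array was 5.72, 3.43, 3.40 and 1.63 times as high. For the other 15 genes above the 90th percentile this difference was −0.54 to 0.32, with a median of −0.12. The hybridisation controls, which do not come from muscle, had a median of −2.30 and the brightest 1% of tested probe sets −0.94. After quantile normalisation J 1c minus the mean of the others was −2.18 for Rpl41, −0.36 for Rps24, −0.81 for Rps28 and −0.072 for Rplp0. Rplp0 was then lowest on NJ 1d. The part of array J 1c in the differences of these 4 genes was not tested beyond leaving it out.

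**Figure D5:**
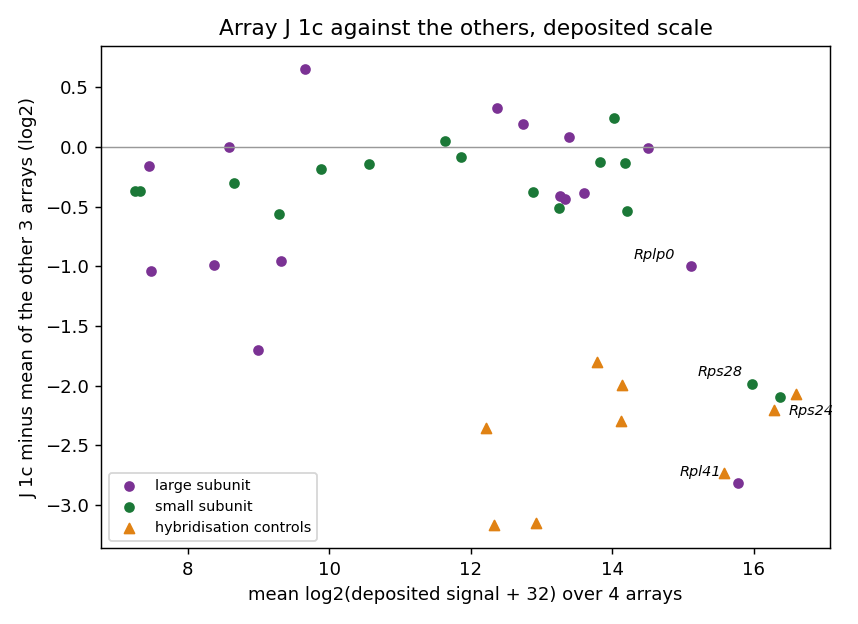
Array J 1c minus the mean of the other 3 arrays (log2 of the deposited signal + 32, vertical axis) against the mean level over 4 arrays (horizontal), with large subunit genes in purple, small in green and the 9 hybridisation controls as orange triangles. The 4 brightest genes lie from −2.82 to −0.996, and the controls from −3.17 to −1.80.

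Other genes of protein synthesis gave no call either. Of 59 tested proteins of the mitochondrial ribosome, a separate ribosome that makes respiratory chain subunits, 23 were higher and 36 lower in J (median −0.12, with 0.10 for the 1a arrays and −0.29 for J 1c minus NJ 1d). Mrpl2 read 1310 and 1356 on the J arrays against 3164 and 2522 for NJ (−1.10 ± 0.40), Mrpl41 813 and 627 against 1769 and 1519 (−1.20 ± 0.46), and Mrpl11 813 and 1400 against 1965 and 2161 (−0.99 ± 0.45). Each had both J values below both NJ values, and 11 of the 59 did so (18.6%, against 12.9% of all probe sets tested), with 3 above (5.08%, against 13.6%). The translation initiation list also named the repressors Eif4ebp1 and Eif4ebp2 and the termination factor Etf1. It had 4 higher and 20 lower (median −0.20, with −0.32 and 0.037 in the number formats), and both repressors were among the 4 higher. Eif4ebp1, the repressor of the cap-binding factor, read 3534 and 2312 on the J arrays against 1175 and 1243 for NJ (1.19 ± 0.43), and Eif4ebp2, its relative, 5951 and 10231 against 4834 and 4831 (0.82 ± 0.39). Eif2s2, a subunit of the factor that brings the initiator tRNA, read 623 and 561 against 1191 and 1273 (−1.08 ± 0.50).

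Ribosome biogenesis genes had 7 higher and 15 lower (median −0.33, with −0.27 and −0.16 in the number formats). Nop58, a protein of small nucleolar particles, differed by −2.04 ± 0.89, Rrs1 by −2.14 ± 0.99 and Tsr1 by −1.63 ± 1.02, with larger values for the 1a arrays alone (−3.32, −4.03 and −3.10). All 3 were dim on J 1a, at 50.5, 31.4 and 55.6. Elongation factors and other mRNAs with a pyrimidine tract had 7 higher and 5 lower (median 0.026), with Hnrnpa1 at −1.60 ± 0.90, Vim at 1.01 ± 0.75 and Btf3 at −0.74 ± 0.56. Signalling genes had 3 higher and 4 lower (median −0.052), with Akt2 at −0.82 ± 0.49, Tsc1 at −0.69 ± 0.57 and Akt1 at 0.53 ± 0.57. Fau, whose product is cleaved to a small subunit protein, differed by 0.22 ± 0.79. No gene of these lists passed (limma, adjusted p = 0.9998 for each named), and whether they differ from the cytosolic ribosomal proteins was not tested.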

How the data were processed

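The authors deposited a linear intensity for each probe set. The software behind it and the build used were not given in the sources used here. From the values, each column has a mean of 800.5 to 800.6 after trimming 2% at each end, so arrays were scaled to a common level. Groups were read from the titles. The 66 control probe sets were left out of tests, and 12422 remained. Symbols came from the platform's gene table, and all 49 members matched RefSeq's gene table with 0 symbols changed. Signals were taken as log2(value + 32), quantile normalised, and the 9316 probe sets with a mean above the 25th percentile were tested by limma, version 3.58.1 under R 4.3.3 (lmFit, eBayes with trend, 2 residual degrees of freedom, Benjamini-Hochberg over all 9316). The scripts were tested on simulated data. Members and lists were chosen with earlier results of these data known. Named were Rplp0, Rpsa, paralogs with their parent genes, genes with several probe sets, per subunit the 5 genes with the smallest p in each direction, and 3 genes per other pathway list. The remaining members were named beside these. Of the cell type lists, muscle fibre markers had a median difference of −0.27 (3 higher, 9 lower in J) and myeloid and lymphoid markers −0.33 (2 higher, 2 lower). Those of endothelium, smooth muscle, red blood cell, adipocyte, Schwann cell, neuron and satellite cell had medians from −1.69 to 0.74 over 1 to 5 tested genes. Alternatives were other scales, pseudocounts, filters, left-out arrays, a number-format term, the mean of probe sets and the core proteins alone. Figures used matplotlib 3.10.9.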

Additional observations from a re-analysis of the deposited data

How the results depend on the processing

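No paired analysis was possible because the groups share only the replicate label 1a, so that labels give no further pair. The number-format term acts as a block of J 1a with NJ 1a and J 1c with NJ 1d, a pairing by file format alone. With 2 arrays per group, array number limits every statement, and dim members had the widest intervals. Over all probe sets 0 passed limma in every fit run but that with the number-format term, which called 8, none of them a member. The large and small subunit medians were −0.15 and −0.13 on the deposited scale, and −0.21 and −0.19 with median centring. Leaving out each array in turn gave −0.0387 to 0.19 for the large subunit and −0.18 to 0.0698 for the small subunit. The large minus small gap was 0.11 on the deposited scale and under median centring, 0.19 with a pseudocount of 100, 0.0715 with a gene's probe sets averaged and 0.18 without paralogs. In alternatives chosen after seeing the data it was 0.12 without probe sets that carry a suffix letter and 0.20 with the brightest genes alone. Pseudocounts, filters and the trend reversed no tested member gene. Scaling reversed Rpl19 (−0.0318 on the deposited scale, −0.0936 centred), Rpl7 (−0.16, −0.23), Rpl7l1 (0.0758, 0.014), Rplp0 (−0.14, −0.20), Rps3a1 (−0.24, −0.31) and Rps4x (−0.0913, −0.15). With the 1a arrays alone the direction turned for Rpl39 (−0.41), Rpl41 (0.25), Rpl7a (0.16), Rpl8 (0.0864), Rps15 (−0.69), Rps24 (0.086), Rps28 (0.0188), Rps3 (0.21), Rps3a1 (−0.20) and Rps4x (−0.10). For J 1c minus NJ 1d it turned for Rpl19 (−0.0585), Rpl38 (−0.33), Rpl7l1 (0.60), Rps13 (0.0062), Rps19 (0.24) and Rpsa (0.0206). With single arrays left out, 9 genes kept their direction, namely Rpl22, Rpl35a, Rpl6, Rplp0, Rps18, Rps27, Rps28, Rps4l and Rps7. The others ranged across 0, with Rpl10a −0.56 to 0.20, Rpl13a −0.83 to 0.16, Rpl19 −0.13 to 0.31, Rpl32 −1.53 to 0.20, Rpl37a −0.37 to 0.15, Rpl38 −0.41 to 1.47, Rpl39 −0.47 to 0.77, Rpl41 −2.12 to 0.18, Rpl7 −0.0803 to 0.83, Rpl7a −0.60 to 0.00932, Rpl7l1 −0.59 to 0.50, Rpl8 −0.29 to 0.27, Rps10 −0.00554 to 0.51, Rps13 −0.67 to 0.29, Rps14 −0.14 to 0.38, Rps15 −0.97 to 1.47, Rps19 −0.68 to 0.13, Rps24 −0.35 to 0.0314, Rps29 −0.22 to 0.0816, Rps3 −0.36 to 0.33, Rps3a1 −0.23 to 0.24, Rps4x −0.25 to 0.68 and Rpsa −0.33 to 0.0773. The cause was not tested for any of these.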
